A study of Mus musculus with 12 samples.

Results

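Long intergenic noncoding RNAs (lincRNAs) are transcripts, usually spliced and capped like messenger RNA, that come from between protein-coding genes and encode no known protein. Many are expressed at low levels and in few tissues, and some act in the nucleus on the transcription of other genes or help to form protein complexes. In adipose tissue, members of this class are known to take part in the formation of fat cells and in thermogenesis. The array used here carries 732 probes whose names mark them as mouse lincRNA probes, of 60915 probes in all. They were chosen by name alone, with no measured value: 649 have names that start with mouselincRNA, and 83 have names that start with MM9LINCRNAEXON. Each has 1 spot per array.

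The tissue was inguinal white fat, labelled as from 12 male BALB/c mice, with an age of 6 weeks in the labels. The cachexia group (6 mice per the labels) had received colon-26 adenocarcinoma cells under the skin, a transplantable carcinoma line whose growth wastes fat and muscle. The control group (6 littermates) had received PBS, and fat was taken on day 21 from both groups. The labels give no tumour size or body weight, so how far each animal had wasted is not known here. All animals share strain, sex, age and site of injection, and each of the 12 arrays is labelled as 1 sample. In bulk tissue, fewer cells of a type and less RNA per cell cannot be told apart. The comparison asks which of these transcripts differ in fat between tumour-bearing and tumour-free mice.

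A name consists of a prefix, a number and a plus or minus sign, as in mouselincRNA1606+_P1 and mouselincRNA1606-_P1. The 649 mouselincRNA probes carry 332 numbers, and 317 of these numbers occur with both signs. The 83 MM9LINCRNAEXON probes carry 71 numbers, 12 of them with both signs. The files define neither the signs nor the numbers, and give no gene, position or sequence for these probes. None matched the RefSeq gene table (0 of 732), so each is called by its name below and no sequence is printed. For the same reason the labelled tissue could not be checked against genes that mark fat cells.

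Levels are log2 signals relative to the 75th percentile signal of the same array, so a level of 0 means as bright as that percentile and 1 unit is a 2-fold change. A level compares 1 probe between arrays and does not rank transcripts, because probes differ in how strongly they bind. A probe counts as detected where the scanner software had marked its spot as well above background. Arrays from cachexia 3, 5 and 6 were nearly the same: the spread between any 2 of them was 1.52 to 1.83 times the noise of repeated spots, against 4.62 to 39.4 times for the other 63 pairs of arrays. They may hold 1 RNA hybridised 3 times, which the labels do not settle. They were averaged to 1 replicate, which left 6 control and 4 cachexia replicates. Cachexia 1 and 2 were the closest of the other pairs. Their log2 spread was 0.27, against 0.35 to 1.06 between controls. That was 4.62 times the spot noise, against 4.63 to 14.7 times between controls. They were kept as 2 replicates, and that they are separate animals rests on the labels. No slide label was used: arrays with the same scan time in the file headers were taken to be on 1 slide. On that reading, cachexia 1 shared a slide with 4 controls, and it shared a scan day with all 6. Cachexia 2 and 4 shared another slide and day, as did cachexia 3, 5 and 6.

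Fewer of these probes than of all probes gave a signal in fat. Of the 649 mouselincRNA probes, 303 (46.7%) were detected on no array, and of the 83 MM9LINCRNAEXON probes 27 (32.5%), against 21.1% of all probes. On all 12 arrays 35 mouselincRNA probes (5.39%) and 8 MM9LINCRNAEXON probes (9.64%) were detected, against 26.2% of all probes. On at least 6 arrays, the condition for a test, 118 (18.2%) and 28 (33.7%) were detected, against 53.5%. The other 586 of the 732 were too dim to test.

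Detection varied more among cachexia than among control arrays. Between 89 and 139 mouselincRNA probes (median 114) were detected on a control array, or 13.7% to 21.4%. Cachexia 1 to 6, in this order, had 113, 268, 94, 227, 89 and 94 detected mouselincRNA probes. Cachexia 2 and 4 thus lay above every control, and the 4 other cachexia arrays lay within the control range. For the MM9LINCRNAEXON probes the controls spanned 26 to 35. Cachexia 1 to 6, in the same order, had 29, 50, 16, 42, 19 and 19. Cachexia 2 and 4 were again the highest arrays, and cachexia 3, 5 and 6 lay below all controls. Over all probes the detected share was 73.3% and 59.8% on cachexia 2 and 4 and 33.5% to 35.2% on cachexia 3, 5 and 6, against 48.2% to 57.6% on controls.

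Spots meant to give no signal were also bright on cachexia 2 and 4. On each of these arrays 22 of 300 spots named as negative controls were well above background, against 0 to 4 on a control array. Cachexia 2 also had the highest 75th percentile signal (401.1, against 86.7 to 229.2 in controls), while cachexia 3, 5 and 6 had the lowest (25.4 to 27.5). Their part in the detection of the lincRNA probes was not tested.

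A set of 146 mouselincRNA probes (22.5%) was detected in cachexia and on no control array, as were 16 MM9LINCRNAEXON probes (19.3%) and 13.3% of all probes. Of the 146, 116 (79.5%) were detected on cachexia 2, cachexia 4 or both, and on no other array. For MM9LINCRNAEXON this was 13 of the 16 (81.2%), and over all probes the share was 78.8%. Probes with human in place of mouse in the name were close to mouselincRNA. Of these, 252 of 1104 (22.8%) were detected in cachexia and on no control array, 208 of the 252 (82.5%) on cachexia 2, cachexia 4 or both alone. In the other direction, 20 mouselincRNA (3.08%) and 2 MM9LINCRNAEXON probes (2.41%) were detected in control and on no cachexia array, against 1.75% of all probes. No probe of either kind was detected on all 6 arrays of one group and on none of the other.

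After adjustment over the 32584 probes tested, limma called 0 mouselincRNA and 0 MM9LINCRNAEXON probes changed between cachexia and control fat, as it called 0 of all probes (0%). The smallest adjusted p among the 146 was 0.389. At an unadjusted p under 0.05, 17 of 118 mouselincRNA probes (14.4%) were higher in cachexia and 4 (3.39%) were lower. For MM9LINCRNAEXON 7 of 28 (25%) were higher and 0 lower. Over all tested probes these shares were 6.21% higher and 6.58% lower, 12.8% in either direction. Over all replicates the higher share thus exceeded that background for both kinds, in a fit where nothing passed adjustment. On the slide with both groups, 1 cachexia array stands against 4 controls, so no count of probes is read there. The median difference on that slide was -0.37 for mouselincRNA and -0.35 for MM9LINCRNAEXON, against 0.09 over all tested probes.

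The counts at an unadjusted p under 0.05 in limma's test rest in part on single replicates, as do those over all tested probes. The 21 mouselincRNA probes at an unadjusted p under 0.05 became 13 without cachexia 4 and 49 without cachexia 1. Over all 32584 tested probes, 4170 became 2169 and 9803 in the same fits. The 7 MM9LINCRNAEXON probes became 2 without cachexia 4 and 4 without control 1 or control 6. Without control 1 and without control 6, the counts over all tested probes were 3429 and 4375. With cachexia 4 and cachexia 3, 5 and 6 all left out, there were 14 and 4, against 3797 of all tested probes. Normexp gave 8 mouselincRNA probes higher and 1 lower, against 1346 and 1112 of all tested probes. With 12 separate arrays there were 51 and 4, against 6137 and 6613. Slide as a block sets only cachexia 1 against controls, so no count is read from it.

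The levels of the tested probes lay mostly higher in cachexia. The median log2 difference, cachexia minus control, was 0.75 over the 118 mouselincRNA probes, 102 of which were above 0, and 0.59 over the 28 MM9LINCRNAEXON probes, 25 of which were above 0. The quartiles of the mouselincRNA differences were 0.26 and 1.13, and their range was -2.25 to 2.85. Those of MM9LINCRNAEXON ran from -0.74 to 3.12. Over all tested probes the median was -0.00069 and 49.98% were above 0. A difference of more than 1, or 2-fold, was found in 36 mouselincRNA probes (30.5%) upward and 4 (3.39%) downward, against 13.4% and 13.3% of all tested probes. For MM9LINCRNAEXON it was 8 (28.6%) and 0.

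The condition of 6 detected arrays favours probes that are bright in one group, so the same values are given for probes detected throughout. That set is not free of selection either. The 1st percentile of detected probes lay at -1.3 to -1.0 on cachexia 3, 5 and 6, and at -3.57 to -2.61 on controls. A dim probe could thus enter mostly by reading high on those cachexia arrays, so the values of this set are no independent support. Over the 35 mouselincRNA probes detected on all 12 arrays the median difference was 0.77, with 32 above 0. Over the 8 such MM9LINCRNAEXON probes it was 1.01, with 8 above 0. All 15988 probes detected on the 12 arrays had a median of 0.09, and 53.8% were above 0. With no condition on detection, the 649 and 83 probes had medians of 0.37 and 0.42, against 0.20 over all 60915 probes.

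The higher levels were carried by cachexia 4 and the averaged cachexia 3, 5 and 6. Relative to the control mean, the median mouselincRNA probe lay at -0.32 in cachexia 1, 0.25 in cachexia 2, 1.22 in cachexia 4 and 1.44 in the averaged arrays. Each control lay between -0.32 and 0.31 of the mean of the others. Cachexia 1 and 2 thus fell within or just beyond what the controls showed, and the other replicates lay far above it. Of the 118 probes, 82 in cachexia 4 and 77 in the averaged arrays were above the highest control (69.5% and 65.3%), against 12 in cachexia 1 and 32 in cachexia 2. Over all tested probes these shares were 33.7% in cachexia 4 and 34.1% in the averaged arrays.

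The MM9LINCRNAEXON probes followed the same order of replicates. Their median lay at -0.16 in cachexia 1, 0.26 in cachexia 2, 1.03 in cachexia 4 and 1.24 in the averaged arrays, with controls from -0.35 to 0.27. Of the 28, 18 in cachexia 4 and 17 in the averaged arrays were above every control, against 3 and 8 in cachexia 1 and 2. Without cachexia 4 the mouselincRNA median was 0.45, and without the averaged arrays 0.44. Without both, the median difference was -0.12 for mouselincRNA and 0.06 for MM9LINCRNAEXON. On the slide that held both groups, cachexia 1 differed from its 4 controls by -0.37 and -0.35, and on the scan day it differed from the 6 controls by -0.32 and -0.16. The direction of the class difference within the shared slide or day was therefore opposite to that over all replicates, and it rests on 1 cachexia array. Of the 35 probes named by rule, 17 changed the sign of their difference within the slide and 16 within the day. Leaving out 1 replicate moved the difference of 17 of the 35 by over 1.5 times, and of 15 when that replicate was the averaged arrays.

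A control measure of the arrays moved with these levels. The arrays carry spots named Mouse-GAPDH_3 and Mouse-GAPDH_5, after the gene of a glycolytic enzyme. The log2 signal of the former exceeded that of the latter by 2.18 to 3.88 on the control arrays, by 2.52 and 2.47 on cachexia 1 and 2, by 4.74 on cachexia 4 and by 5.48 to 5.60 on cachexia 3, 5 and 6. The level at which a spot began to count as well above background (the 1st percentile of detected probes) was -1.3 to -1.0 on cachexia 3, 5 and 6. It was -3.57 to -2.61 on the controls, -3.41 and -4.41 on cachexia 1 and 2 and -2.91 on cachexia 4. The part of either measure in the class difference was not tested. Over probes detected on all 12 arrays, the median mouselincRNA difference was 1.12 in cachexia 4 and 1.60 in the averaged arrays. That set was itself selected through these detection levels.

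The members also varied among the controls. An SD over 1 between the 6 controls was found in 39 of 118 mouselincRNA probes (33.1%) and in 5 of 28 MM9LINCRNAEXON probes (17.9%), against 18.2% of all tested probes. In 25 of the 39 and 4 of the 5, the lowest levels were those of controls 2 and 3, the arrays on the slide without a cachexia array. Over all probes with such an SD the share was 37.2%. Of these 25, 20 lay above every control in both cachexia 4 and the averaged arrays, as did 4 of the 4, against 60.6% of all probes chosen in this way. Probes with human in place of mouse in the name were close to mouselincRNA, with such an SD in 59 of 183 tested (32.2%). Controls 2 and 3 were lowest in 39 of these 59 (66.1%). Of the 39, 31 (79.5%) lay above every control in both cachexia 4 and the averaged arrays. Slide and animal cannot be told apart for controls 2 and 3.

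Several probes were not detected in controls 2 and 3, so that their low levels there are background and their fitted differences are no exact folds. In MM9LINCRNAEXON11125+_P1, detected on the 4 other controls and on all 6 cachexia arrays, the levels were 2.95, 1.90, 2.77 and 2.99 in controls 1, 4, 5 and 6, but -3.72 and -4.19 in controls 2 and 3. In cachexia it read 0.12 in cachexia 1, 2.54 in cachexia 2, 6.01 in cachexia 4 and 4.54 in the averaged arrays. Cachexia 4 and the averaged arrays were above all controls, and cachexia 1 and 2 lay within the control range. Its difference was 2.85 ± 1.74 (SE; limma adjusted p = 0.428), so the difference was within the spread between replicates.

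MM9LINCRNAEXON11382+_P1 showed the same pattern. Controls ran from -5.34 to -0.25 (median -2.29), with controls 2 and 3 lowest, and the cachexia levels were -1.51, -0.46, 2.37 and 1.49 in cachexia 1, 2, 4 and the averaged arrays. The groups overlapped through cachexia 1 and 2. The difference of 3.12 ± 1.09 (SE) had an unadjusted p of 0.0156 and an adjusted p of 0.389 in limma's test. It was detected on all 6 cachexia arrays and on 4 of 6 control arrays, not on controls 2 and 3.

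For mouselincRNA1606+_P1, detected on the same 10 arrays, the fitted difference was 2.85 ± 1.75 (SE, adjusted p = 0.430 in limma's test), and 1.56 without cachexia 4. Its controls ran from -5.37 in control 2 to 0.84 in control 6, and its cachexia levels were -3.19, -1.56, 4.66 and 3.30. The probe mouselincRNA0869-_P1, named after its values were seen, was alike: -3.41 and -4.92 in controls 2 and 3, -2.13 to 0.73 in the other controls, and -2.71, -1.64, 2.94 and 2.79 in cachexia. An exception among the wide-ranging probes, also named after its values were seen, was mouselincRNA0733-_P1. It too was lowest in controls 2 and 3 (-5.29 and -4.90) and reached 1.66 in control 6. Its cachexia levels of -5.20, -3.04, -0.74 and -0.68 all lay within the control range. It was not detected on controls 2 and 3, nor on cachexia 1 and 6. Its levels there are background, and so is the lower end of that range. The averaged level includes the undetected cachexia 6.

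Probes whose groups did not overlap were few. Of the mouselincRNA probes, 3 of 118 (2.54%) lay above every control in all 4 cachexia replicates and 2 (1.69%) lay below, against 1.19% and 1.28% of all tested probes. Of the MM9LINCRNAEXON probes, 0 of 28 did so in either direction. These counts of 3 and 2 probes are too small to read a difference from the background.

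The probe with the smallest p of all 146 was mouselincRNA1377-_P1. Controls lay between -2.68 and -2.0 (median -2.46), and cachexia 1, 2, 4 and the averaged arrays read -1.66, -1.27, -1.19 and -0.39. The lowest cachexia replicate was 0.34 above the highest control, and all 4 cachexia replicates were higher. The difference was 1.25 ± 0.32 (SE), or 2.37-fold, with an unadjusted p of 0.00271 and an adjusted p of 0.389 in limma's test. It was a dim probe, detected on 5 of 6 control arrays and on all 6 cachexia arrays.

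Next came mouselincRNA0513+_P1, a brighter probe detected on all 12 arrays. It ran from 1.86 to 2.52 (median 2.10) in control, and read 2.65, 3.10, 3.44 and 3.96 in the cachexia replicates in the same order. All cachexia levels were above the controls, by 0.13 at the narrowest. The difference was 1.14 ± 0.33 (SE), or 2.20-fold (limma, unadjusted p = 0.00548, adjusted p = 0.389). For mouselincRNA1188-_P1, detected on all 12 arrays, controls spanned -2.25 to -1.49 (median -1.96) and cachexia levels were -1.28, -0.92, -0.98 and -0.70. This was the most even of the 3 over the cachexia replicates, with a difference of 0.93 ± 0.30 (SE) and an adjusted p of 0.389 from limma.

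The most negative difference was that of mouselincRNA1181+_P1. Its controls split into 1.93, 1.25 and 2.18 in controls 2, 3 and 4 and -1.03, -1.35 and -0.44 in controls 1, 5 and 6. Cachexia 1, 2, 4 and the averaged arrays read -1.84, -1.63, -2.28 and -1.56, below all controls. The fitted difference of -2.25 ± 0.72 (SE) had an unadjusted p of 0.00995 and an adjusted p of 0.389 (limma). It was detected on 6 control arrays and on cachexia 1, 2 and 4, but not on cachexia 3, 5 and 6, whose averaged level is background and no measured level. The gap of 0.21 between the groups was small beside the spread of the controls.

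The other probe below all controls was mouselincRNA0305+_P1, with controls from -2.54 to -1.07 (median -1.83) and cachexia levels of -2.79, -2.99, -3.09 and -3.24. It was detected on 5 control and 2 cachexia arrays, so most cachexia levels are those of spots not well above background. The difference was -1.17 ± 0.38 (SE; limma, unadjusted p = 0.00973, adjusted p = 0.389). The condition of detection on all 12 arrays leaves out dim probes that fall in cachexia, such as mouselincRNA0305+_P1. It thereby limits how many negative differences can remain. Of the 35 mouselincRNA probes that met it, 3 were below 0. These were mouselincRNA0052-_P1 at -0.91 ± 0.55, mouselincRNA0478+_P1 at -0.61 ± 0.52 and mouselincRNA1425-_P1 at -0.17 ± 0.91 (each with its SE). The last was lowest in controls 2 and 3 (-1.87 and -1.83) and cachexia 1 (-2.42), and reached 1.5 in control 6 and in the averaged arrays.

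The probes with the highest signal included several with large differences. The brightest, mouselincRNA0161-_P1, ran from 7.39 to 8.80 (median 8.64) in control and read 8.03, 8.69, 10.07 and 10.29 in cachexia. Cachexia 1 and 2 lay inside the control range and the other replicates above it. The difference was 0.99 ± 0.53 (SE, limma adjusted p = 0.403), and 0.65 without the averaged arrays.

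Of probes detected on all 12 arrays, mouselincRNA1606-_P1 had the largest difference. Controls ran from 5.38 to 8.44 (median 5.77), and cachexia 1, 2, 4 and the averaged arrays read 7.04, 8.76, 7.54 and 11.67. Control 4, at 8.44, lay above the next control (6.23) and above cachexia 1 and 4. The difference of 2.58 ± 0.89 (SE), or 5.99-fold, had an unadjusted p of 0.0146 and an adjusted p of 0.389 (limma). Without the averaged arrays it was 1.61.

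The probes mouselincRNA1235-_P1 and mouselincRNA0735+_P1 moved alike over the replicates. The former was 4.29 and 4.48 in controls 2 and 3, 6.17 to 6.59 in the other controls, and 5.48, 7.14, 8.44 and 9.38 in cachexia. The latter was 4.24 and 4.21 in controls 2 and 3, 5.75 to 6.50 in the others, and 5.04, 6.66, 8.65 and 9.06 in cachexia. In both, cachexia 1 lay among the controls and the 3 other replicates above them. Their differences were 1.88 ± 0.77 and 1.79 ± 0.82 (SE), with adjusted p of 0.389 and 0.390 in limma's test. A further difference of 1.61 ± 1.1 (SE, limma adjusted p = 0.453) was that of mouselincRNA0664-_P1, from -1.78 in control 2 to 1.44 in control 6 and -1.17, -0.04, 3.90 and 3.76 in cachexia. It was 0.85 without cachexia 4, 0.90 without the averaged arrays and 2.54 without cachexia 1.

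Of the MM9LINCRNAEXON probes detected on all 12 arrays, MM9LINCRNAEXON10569-_P1 and MM9LINCRNAEXON10664-_P1 had the largest differences. MM9LINCRNAEXON10569-_P1 ran from 1.02 to 2.90 (median 1.94) in control and read 4.22, 4.29, 2.04 and 3.20 in cachexia. Here cachexia 1 and 2 were the highest replicates and cachexia 4 lay among the controls, unlike the order of the medians over the class. The difference was 1.58 ± 0.52 (SE), or 2.98-fold (limma, unadjusted p = 0.0113, adjusted p = 0.389), and its unadjusted p was the smallest of the MM9LINCRNAEXON probes.

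MM9LINCRNAEXON10664-_P1 had a like mean difference, 1.58 ± 1.26 (SE, limma adjusted p = 0.495), from an opposite pattern. It read 0.71 and 0.66 in cachexia 1 and 2 and 5.96 and 6.42 in cachexia 4 and the averaged arrays, against controls from 0.43 to 3.97 (median 1.60). The difference was 0.74 without cachexia 4, 0.59 without the averaged arrays, and 2.49 and 2.51 without cachexia 1 and 2. Smaller positive differences were those of MM9LINCRNAEXON10136+_P1 (1.14 ± 0.44), MM9LINCRNAEXON11731-_P1 (1.06 ± 0.40) and MM9LINCRNAEXON10490+_P1 (0.92 ± 0.40), each with an adjusted p of 0.389 in limma's test. MM9LINCRNAEXON10136+_P1 was highest in cachexia 1 (0.34), and MM9LINCRNAEXON11731-_P1 in the averaged arrays (0.59). Of the 3 tested MM9LINCRNAEXON probes below 0, those with the smallest p had differences of -0.74 ± 0.58 for MM9LINCRNAEXON11569-_P1 and -0.36 ± 0.37 for MM9LINCRNAEXON10294-_P1 (SE, limma adjusted p = 0.489 and 0.573). The averaged arrays were the lowest replicate of each, at -1.35 and -2.14, and without them the differences were -0.082 and -0.015. MM9LINCRNAEXON10294-_P1 was not detected on cachexia 3, 5 and 6, and MM9LINCRNAEXON11569-_P1 was detected on cachexia 6 but not on cachexia 3 and 5.

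Of the mouselincRNA probes detected on all 12 arrays, mouselincRNA0344-_P1 and mouselincRNA0484-_P1 varied least. The former stayed between -0.75 and -0.49 in control and read -0.87, -0.85, -0.73 and 0.45 in cachexia, so the averaged arrays stood apart from the other replicates. The latter ran from -1.45 to -0.76 in control and from -1.46 to -0.23 in cachexia. Their differences were 0.13 ± 0.33 and 0.08 ± 0.33 (SE), and the latter turned negative under quantile normalization. Of the 8 MM9LINCRNAEXON probes detected throughout, MM9LINCRNAEXON10664+_P1 and MM9LINCRNAEXON10490+_P1 varied least, the former at 2.24 to 3.38 in control and 2.75, 2.84, 3.23 and 3.92 in cachexia, a difference of 0.41 ± 0.36 (SE) that was 0.16 without cachexia 3, 5 and 6. The latter ran from 0.52 to 1.58 in control and from 0.92 to 2.64 in cachexia.

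Numbers present with both signs allowed the 2 probes of a number to be set side by side. Of the 317 mouselincRNA numbers with both signs, 14 had both probes tested, 44 the plus probe alone, 46 the minus probe alone and 213 neither. In 49 of the numbers with 1 tested probe, the other probe was detected on no array. Plus and minus probes were tested at similar rates, 58 of 322 and 60 of 327, with median differences of 0.83 and 0.69. Among the MM9LINCRNAEXON probes 16 of 50 plus and 12 of 33 minus probes were tested, with medians of 0.85 and 0.30.

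Where both probes of a number were tested, their differences mostly had the same sign. In 13 of 14 mouselincRNA numbers and 3 of 3 MM9LINCRNAEXON numbers both differences were above 0. Over the 118 tested mouselincRNA probes 102 differences were above 0. The median gap between the 2 differences was 0.50 over the 14 mouselincRNA numbers.

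The exception was number 305. The log2 difference was -1.17 for mouselincRNA0305+_P1 and 0.79 for mouselincRNA0305-_P1. Of the cachexia arrays, the plus probe was detected on cachexia 1 and 2 alone, so its other cachexia levels are background. Within arrays, the plus minus the minus level was -0.05 ± 0.44 (SD, n = 6) in control and -2.01 ± 1.16 (SD, n = 4) in cachexia. That change of -1.96 is therefore no exact size. Its two-sided exact permutation p was 0.0190, and 0.324 after Benjamini-Hochberg adjustment over the 17 numbers compared. The smallest p that the 210 arrangements of the samples allow is 0.00476. No number passed adjustment, and the comparison was added after the values were seen.

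In number 1235 the difference was 1.88 for the minus probe and 0.58 for the plus probe, and plus minus minus changed by -1.30 (exact permutation p = 0.114, adjusted p = 0.648). Number 706 combined a plus probe that was highest in cachexia 1 and 2 with a minus probe that was highest in cachexia 4 and the averaged arrays. The plus probe mouselincRNA0706+_P1 read 4.54, 5.13, 2.80 and 3.49 in cachexia against 1.97 to 4.03 in control (difference 1.16 ± 0.54, SE). The minus probe mouselincRNA0706-_P1 read -1.28, -0.76, -0.30 and -0.39 against -1.57 to -0.99 (difference 0.63 ± 0.30, SE). In number 522 the differences were 0.33 ± 0.40 for mouselincRNA0522+_P1, which turned negative under quantile normalization, and 0.78 ± 0.34 for mouselincRNA0522-_P1 (SE). The plus probe of number 522 was not detected on controls 1, 5 and 6 or on cachexia 3, 5 and 6. Its levels there are background, so its difference is no exact size.

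The plus probe of number 1235, mouselincRNA1235+_P1, had a difference of 0.58 ± 0.41 (SE). Of the other MM9LINCRNAEXON numbers, 11641 had differences of 1.19 ± 1.03 for the plus probe MM9LINCRNAEXON11641+_P1 and 0.32 ± 0.62 for the minus probe MM9LINCRNAEXON11641-_P1. For 11712 they were 0.84 ± 0.35 for MM9LINCRNAEXON11712+_P1 and 1.27 ± 0.72 for MM9LINCRNAEXON11712-_P1 (SE). In 11641 the plus probe was lowest in controls 2 and 3 (-2.95 and -3.34) and reached 1.41 and 1.85 in cachexia 4 and the averaged arrays, while the minus probe read -1.70 and 0.08 there.

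The probes with human in place of mouse in the name, 1104 on the array, were set beside the mouse-named ones as the most similar class. Of these 183 (16.6%) were tested, close to the 18.2% of mouselincRNA, and their median difference was 0.84 with 165 above 0. Their medians by replicate were -0.30, 0.31, 1.44 and 1.76 in cachexia 1, 2, 4 and the averaged arrays, the same order as for both mouse-named kinds. The difference between the classes was not tested.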

How the data were processed

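Per the labels' protocols, ribosomal RNA was removed, and the remaining RNA was copied by random priming into Cy3-labelled cRNA. The authors deposited 1 Agilent scanner file per array with spot intensities, read with Agilent Feature Extraction 11.0.1.1 per the file headers. The processed intensity used here had been background-subtracted and spatially detrended within the array, per the file headers, with no scaling between arrays. The deposited series table holds log2 values of the same arrays, and no source used here states how they were scaled. Flags for detection (0 or 1) were used as the authors deposited them.

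Groups came from sample titles, as all 12 descriptions call the sample a control. Outlier-flagged spots (2 values of the 732 probes: 1 on control 6, 1 on cachexia 5) and negative-control spots were left out, and log2 intensities were reduced by each array's 75th percentile. Probes detected on at least 6 of 12 arrays entered 1 limma 3.58.1 fit (R 4.3.3; lmFit, eBayes, two-sided, Benjamini-Hochberg over 32584 probes, threshold 0.05). Cachexia 3, 5 and 6 were averaged before the fit because of their likeness (spread under 2 times the spot noise). Whether the other arrays are separate animals rests on the labels alone. No non-control spot was saturated (0). Python 3.11.15, NumPy 2.4.6, pandas 2.3.3 and SciPy 1.17.1 were used for counts and exact permutation tests. The fit was also run on simulated data in which every replicate had the spread of the controls. The real cachexia replicates spread more, with a median SD of 0.98 against 0.56 in controls over all tested probes. That run therefore does not show how the fit performs on these data. The number of arrays limits the precision.

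Probes named in the text were chosen per name type. They are the 4 largest rises and 3 largest falls among probes detected on all 12 arrays, the 4 brightest, the 2 smallest p in each direction, the 3 widest gaps between groups, the 2 steadiest, and the brightest number pairs (up to 4). The tests of pairs, the spread between controls and exceptions named in the text were added after the values were seen. The class of probes, the averaging and the choices above were made with earlier results of these data known. Gene markers were not used, since the files pair no probe with a gene. Alternatives were quantile normalization, another percentile reference, normexp (offset 50) on median spot signals, the authors' log2 values, 2 other filters, trend and robust variance, slide and scan day as blocks or subsets, 12 separate arrays with and without the replicate number as a block, and replicates left out.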

Additional observations from a re-analysis of the deposited data

Results flagged for a closer look

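In 78 groups of values examined, 4 held 1 sample far from the others, and chance alone flags about 1 group in 20. Control 4 read 8.44 for mouselincRNA1606-_P1, where the next control read 6.23 and the lowest 5.38. Control 4 also showed 42.2% of the MM9LINCRNAEXON probes as detected, against 31.3% to 34.9% on the other controls, and it had the highest 75th percentile signal of the controls (229.2). Control 5 read -3.54 for MM9LINCRNAEXON11641-_P1, against -2.17 to -1.37 in the other controls. The averaged cachexia 3, 5 and 6 read 0.45 for mouselincRNA0344-_P1, against -0.87 to -0.73 in the other cachexia replicates.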

How the results depend on the processing

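Under every alternative run, limma called 0 mouselincRNA and 0 MM9LINCRNAEXON probes, and none of the 35 probes named by rule passed in any of them. The lowest adjusted p among these in limma's test was 0.0707, with 12 separate arrays. It was 0.10 without cachexia 4 and cachexia 3, 5 and 6, and 0.113 with the replicate number as a block. Over all tested probes limma called 10 with 12 separate arrays and 30 without cachexia 4 and cachexia 3, 5 and 6. It called 0 in the other alternatives. In the block fit 48 of 118 mouselincRNA and 13 of 28 MM9LINCRNAEXON probes had an unadjusted p under 0.05 in limma's test. Over all 32584 tested probes it was 11463. For the 12 arrays with no block the counts were 55 and 12, and 12750 over all tested probes. Both fits count the nearly identical cachexia arrays, otherwise averaged, as separate replicates. Whether the replicate numbers pair the samples is not known. Deviations of same-numbered arrays correlated at -0.523 to 0.442, and the labels tie no replicate number to a litter or day. These correlations cannot decide it, as they were not set beside those of differently numbered arrays.

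The median mouselincRNA difference of 0.75 moved to 0.18 with normexp and 0.37 with no filter. It became -0.37 by slide (as a block, and within the shared slide), -0.32 by scan day (likewise) and -0.12 without cachexia 4 and cachexia 3, 5 and 6. With 1 replicate left out it ran from 0.44 to 0.98, and without cachexia 4 it was 0.45. The MM9LINCRNAEXON median of 0.59 moved to 0.96 with 12 separate arrays, with or without the replicate block, to 0.19 with normexp and to 1.01 over probes detected on all 12 arrays. It became -0.35 by slide, -0.16 by day and 0.058 without cachexia 4 and cachexia 3, 5 and 6. With 1 replicate left out it ran from 0.48 to 0.86. By slide or scan day, cachexia 1 was the only cachexia replicate set against controls, so block and subset are 1 estimate. The cause of the other shifts was not tested. With the scanner's more lenient flag, 38.1% to 52.1% of mouselincRNA probes counted as detected on a control array.

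Single differences changed sign as follows. By scan day, as a block or within the day, they were -0.13 for MM9LINCRNAEXON10490+_P1, -0.024 for MM9LINCRNAEXON10664+_P1, -1.15 for MM9LINCRNAEXON10664-_P1, -0.33 for MM9LINCRNAEXON11125+_P1, 0.43 for MM9LINCRNAEXON11569-_P1, -1.01 for MM9LINCRNAEXON11641+_P1, -0.78 for MM9LINCRNAEXON11641-_P1, -0.27 for MM9LINCRNAEXON11712-_P1, -0.25 for mouselincRNA0161-_P1, -0.24 for mouselincRNA0344-_P1, -0.25 for mouselincRNA0484-_P1, -1.17 for mouselincRNA0664-_P1, -0.53 for mouselincRNA0735+_P1, -0.59 for mouselincRNA1235+_P1, -0.25 for mouselincRNA1235-_P1 and -1.14 for mouselincRNA1606+_P1. By slide, as a block or within the slide, they were -0.28 for MM9LINCRNAEXON10664+_P1, -1.82 for MM9LINCRNAEXON10664-_P1, -2.53 for MM9LINCRNAEXON11125+_P1, -0.058 for MM9LINCRNAEXON11382+_P1, 0.58 for MM9LINCRNAEXON11569-_P1, -1.82 for MM9LINCRNAEXON11641+_P1, -0.75 for MM9LINCRNAEXON11641-_P1, -0.66 for MM9LINCRNAEXON11712-_P1, -0.68 for mouselincRNA0161-_P1, -0.19 for mouselincRNA0344-_P1, 0.19 for mouselincRNA0478+_P1, -0.15 for mouselincRNA0484-_P1, -2.05 for mouselincRNA0664-_P1, -1.19 for mouselincRNA0735+_P1, -0.41 for mouselincRNA1235+_P1, -0.93 for mouselincRNA1235-_P1 and -2.65 for mouselincRNA1606+_P1. Without cachexia 4 and cachexia 3, 5 and 6 they were -1.17 for MM9LINCRNAEXON10664-_P1, 0.33 for MM9LINCRNAEXON11569-_P1, -0.77 for MM9LINCRNAEXON11641+_P1, -0.67 for MM9LINCRNAEXON11641-_P1, -0.19 for MM9LINCRNAEXON11712-_P1, -0.23 for mouselincRNA0344-_P1, -0.32 for mouselincRNA0484-_P1, -0.61 for mouselincRNA0664-_P1, -0.11 for mouselincRNA1235+_P1 and -0.33 for mouselincRNA1606+_P1. Normexp gave -0.13 for MM9LINCRNAEXON11641-_P1 and -0.057 for mouselincRNA0484-_P1, quantile normalization -0.0022 for mouselincRNA0484-_P1 and -0.039 for mouselincRNA0522+_P1, and the authors' log2 values -0.0026 for mouselincRNA0484-_P1 and -0.13 for mouselincRNA0522+_P1. Without cachexia 3, 5 and 6 the values were -0.31 for MM9LINCRNAEXON11641-_P1, -0.19 for mouselincRNA0344-_P1 and -0.18 for mouselincRNA0484-_P1. For mouselincRNA1425-_P1 the value was 0.46 with 12 arrays, with or without the block, 0.071 and 0.18 without control 1 and 6, and 0.50 and 0.22 without cachexia 1 and 2, in a leave-one-out range of -0.80 to 0.50 that holds -0.60 without cachexia 4. Probes near background on cachexia 3, 5 and 6, where signals were lowest, limit what can be read there.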
